A study of Homo sapiens with 6 samples.

Results

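The regions described here are stretches of open chromatin at the ends of protein-coding genes that were listed in every ATAC-seq library of the human myeloma line KMS-11. Peaks with a −log10 q of at least 2 were merged over the 6 peak lists on chromosomes 1 to 22. A merged region was kept when such a peak overlapped it in all 6 lists and when it lay within 1000 bp of an annotated end of exactly 1 protein-coding gene. This left 10372 of 208856 merged regions, at 9365 of 19126 protein-coding genes, and they are called gene-end regions, or members on the plots. They were selected on the −log10 q of the peaks in these same 6 libraries, so their presence everywhere is a condition of the choice and not a result. All comparisons of their strength were made among the 59853 regions that were present in all 6 lists, of which the gene-end regions made up 17.3%. Constant here means listed in all 6 libraries and does not mean equal in signal.

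KMS-11 comes from multiple myeloma, a cancer of antibody-secreting plasma cells. All 6 libraries were labelled with the genotype WT. The 3 control libraries carried the treatment label LentiV2, a lentiviral vector, and the 3 knockdown libraries the label LentiV2_ATF4g3, so all of the latter bear 1 guide label and no other guide was compared. The labels do not say how the guide acts, and the peak lists hold no measure of ATF4 RNA or protein.

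In ATAC-seq the Tn5 transposase inserts adapters where DNA is free of nucleosomes, and the starts of active genes are among the most open places of a genome because transcription factors and RNA polymerase hold nucleosomes off them. Many such starts lie in CpG islands and are open in most cell types, whereas enhancers away from genes vary more from cell to cell. ATF4 is a transcription factor of the integrated stress response that induces amino acid transporters, amino acid synthesis and tRNA charging genes, and the title of the study joins it with p52, the processed form of NFKB2, with the coactivators p300 and CBP and with BACH1, a repressor of haem and oxidant genes.

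Promoter sequences are shown for ATF4, the targeted gene, for BACH1, and for the gene-end regions with the largest rank changes whose window overlapped the region, namely EEF2, PLBD2 and BRD3OS on the side that rose and CALML3 on the side that fell. Each is the RefSeq window on GRCh38.p14 from 250 bases before to 50 bases after the gene's start, written 5′ to 3′ on the strand of the gene. Capitals mark matches on either strand to any of 13 motifs. Those of stress and signal factors were the ATF4 composite site with the letters TGATGNAA, the full cAMP response element with TGACGTCA, the AP-1 site with TGANTCA, the antioxidant element with TGACNNNGC and an NF-kB-like site with GGGNNTTCC. Those of general promoter factors were the NRF1 site with GCATGCGC, the ETS site with CCGGAAG, the SP and KLF box with GGGCGG, the CCAAT box of NF-Y, read as ATTGG, and the YY1 site with AAGATGG. The others were the E-box with CACGTG, the box bound by the TATA-binding protein with TATAAA and the ZNF143 site with ACTACAA. Overlapping matches run together in 1 stretch of capitals. The windows are chr22:39520309-39520608 on the plus strand for ATF4, chr21:29298672-29298971 on the plus strand for BACH1, chr19:3985414-3985713 on the minus strand for EEF2, chr12:113358337-113358636 on the plus strand for PLBD2, chr9:134025231-134025530 on the plus strand for BRD3OS and chr10:5524711-5525010 on the plus strand for CALML3.
ATF4: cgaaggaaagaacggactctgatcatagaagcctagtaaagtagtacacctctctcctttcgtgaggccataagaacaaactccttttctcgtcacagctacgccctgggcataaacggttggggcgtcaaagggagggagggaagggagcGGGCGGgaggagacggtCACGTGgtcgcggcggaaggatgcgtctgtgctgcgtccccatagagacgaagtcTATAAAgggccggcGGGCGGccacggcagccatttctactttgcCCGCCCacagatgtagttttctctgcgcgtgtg
BACH1: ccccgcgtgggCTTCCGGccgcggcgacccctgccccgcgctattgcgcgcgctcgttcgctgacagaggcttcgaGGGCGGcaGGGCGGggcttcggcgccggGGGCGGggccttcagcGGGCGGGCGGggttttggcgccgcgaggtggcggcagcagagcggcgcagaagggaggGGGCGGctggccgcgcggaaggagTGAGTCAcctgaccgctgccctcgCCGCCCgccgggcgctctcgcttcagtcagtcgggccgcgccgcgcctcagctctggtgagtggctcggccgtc
EEF2: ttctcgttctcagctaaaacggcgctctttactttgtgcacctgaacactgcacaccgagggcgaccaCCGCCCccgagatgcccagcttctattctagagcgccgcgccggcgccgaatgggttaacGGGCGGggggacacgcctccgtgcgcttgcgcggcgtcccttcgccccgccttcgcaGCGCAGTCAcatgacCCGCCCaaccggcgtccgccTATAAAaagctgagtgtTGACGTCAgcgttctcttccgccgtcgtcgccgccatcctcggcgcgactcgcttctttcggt
PLBD2: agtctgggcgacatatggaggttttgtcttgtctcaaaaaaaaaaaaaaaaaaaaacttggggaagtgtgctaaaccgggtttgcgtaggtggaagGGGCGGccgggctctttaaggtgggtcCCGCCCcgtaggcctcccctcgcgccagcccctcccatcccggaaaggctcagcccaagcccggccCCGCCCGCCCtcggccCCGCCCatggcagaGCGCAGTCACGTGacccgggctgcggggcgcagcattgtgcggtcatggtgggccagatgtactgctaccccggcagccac
BRD3OS: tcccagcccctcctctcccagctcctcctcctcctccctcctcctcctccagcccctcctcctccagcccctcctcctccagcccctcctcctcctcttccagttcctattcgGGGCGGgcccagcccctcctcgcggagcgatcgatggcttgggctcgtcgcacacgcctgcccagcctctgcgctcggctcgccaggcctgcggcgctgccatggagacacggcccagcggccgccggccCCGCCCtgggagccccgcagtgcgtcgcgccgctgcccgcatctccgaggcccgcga
CALML3: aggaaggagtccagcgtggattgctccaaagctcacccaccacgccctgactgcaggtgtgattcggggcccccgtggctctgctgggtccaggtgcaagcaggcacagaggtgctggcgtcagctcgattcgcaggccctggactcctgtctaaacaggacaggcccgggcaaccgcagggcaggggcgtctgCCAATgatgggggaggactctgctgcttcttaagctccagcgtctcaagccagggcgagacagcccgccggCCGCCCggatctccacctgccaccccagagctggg
The ATF4 window held 3 SP and KLF boxes, an E-box and a TATA box. That of BACH1 held 7 SP and KLF boxes, an AP-1 match and an ETS match, and its GC content of 77.7% was the highest of the 6. The EEF2 window had a full cAMP response element, an antioxidant element, 3 SP and KLF boxes and a TATA box, with a CpG observed over expected ratio of 1.36. CALML3 stood at the other end with a CpG ratio of 0.49, 1 SP and KLF box and 1 CCAAT box. None of the 6 windows held the letters of the ATF4 composite site. A match is a string of letters in the window and does not show binding.

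The lists held 212973 to 230030 summits each. The background pileup of a library, the value its local background took most often and a measure of its depth, was 2.79 to 3.52 among controls and 2.15 to 2.51 among knockdown libraries, so group and depth cannot be told apart. Rank scores of all constant regions correlated at 0.914 to 0.926 between controls, 0.869 to 0.878 between knockdown libraries and 0.781 to 0.854 across the groups (Pearson's r across regions, which share libraries). Control 2, the shallowest control, had a lower correlation with each knockdown library than the other controls did. Of 10 plasma cell and myeloma markers, all had a constant region at an end, IRF4, PRDM1, XBP1, SDC1 and CD38 among them. None of 4 myeloid markers had one. Of 5 B cell markers, 2 had one, PAX5 and CIITA. CD3D, CD3E and CD247 of 4 T and NK cell markers and 3 of 4 epithelial and stromal markers did have one, and the part of other cells in that was not tested.

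Gene-end regions sat mostly on gene starts. Of the 10372, 7276 had a gene start as their nearest annotated end, 1057 had a 3′ end, and for 2039 the tables used gave no strand. The annotated end lay inside the region for 88.6% of those at gene starts and for 24.6% of those at 3′ ends. In 872 genes there were 2 gene-end regions and in 66 genes 3 or more. Regions near exactly 1 gene were constant far more often than merged regions at large, 66.8% of 15530 against 28.7% of all. Among those that were not constant, 974 were present in the 3 controls and missing from at least 1 knockdown library, and 98 were present in the 3 knockdown libraries and missing from at least 1 control. The depth difference between the groups moves in the same direction as these counts, and its part in them was not tested.

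Some members only just met the rule. The region over the start of AHNAK2 had −log10 q values of 18.5, 33.9 and 34.2 among controls and 5.07, 2.0 and 3.31 among knockdown libraries, and that of PERCC1 had its lowest value, 2.02, in knockdown library 2. Just outside were a region 596 bp from an end of MLPH, with 1.99 in control 2, and a region 464 bp from an end of FGFR1, with 1.99 in knockdown library 2. The farthest region kept lay 1000 bp from an end of GOLGA6B and the nearest left out 1001 bp from an end of GABBR2.

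Gene-end regions stood higher in the order of constant regions among knockdown libraries than in the controls. The order is that of the fold enrichment of a region's strongest summit over its local background, given as a percentile rank among the 59853 constant regions of the same library. The median gene-end region had a percentile rank of 65.99, 60.6 and 66.4 in controls 1, 2 and 3 and of 75.4, 73.9 and 73.1 in knockdown libraries 1, 2 and 3. All knockdown medians lay above all control medians, 74.2 ± 1.17 against 64.3 ± 3.23 (SD, n = 3 each), a difference of 9.84 percentile points. The exact two-sided permutation test gave p = 0.1 (0.1095 after Benjamini-Hochberg adjustment over 69 such medians), the smallest p that 3 libraries against 3 allow. The fold itself went the other way, with medians of 12.7, 13.5 and 12.1 among controls and 10.7, 10.99 and 11.3 among knockdown libraries. The rank is a place among other regions. Those with no gene end had median folds of 9.64, 11.3 and 9.09 against 6.55, 6.97 and 7.41.

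The size of the rank difference depended on which background the pileup was set against. The pileup at the summit over the background of the whole library had medians of 61.1, 69.9 and 57.7 among controls and 41.8, 47.4 and 48.6 among knockdown libraries, a ratio of group means of 0.731, against 0.642 for constant regions with no gene end. Constant regions near the ends of several genes, the kind most like these, also stood higher in fold rank, from 67.1 ± 3.77 to 77.5 ± 1.40 (SD, n = 3 each, a difference of 10.4 against the 9.84 of gene-end regions). Ranked by pileup over library background, the median gene-end region moved by 2.00 percentile points, from 81.1 ± 0.839 to 83.1 ± 0.165 (SD, n = 3 each, exact permutation p = 0.1). The local background of gene-end regions, relative to that of their library, was 4.68 ± 0.226 among controls and 3.75 ± 0.203 among knockdown libraries. In regions with no gene end it was 1.57 ± 0.0552 and 1.40 ± 0.0246. A higher mean pileup over library background after knockdown was found in 571 gene-end regions, 5.51%, against 7.69% of all constant regions and 8.33% of those with no gene end.

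**Figure D1:**
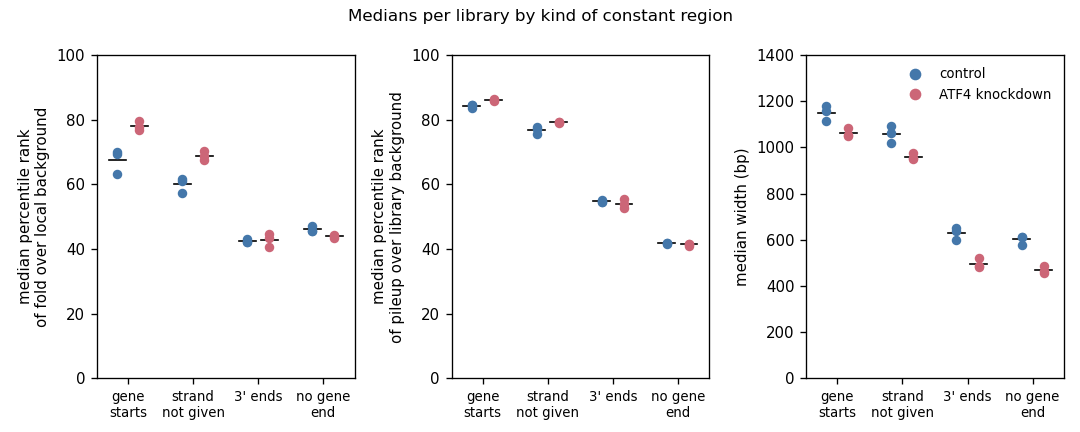
Each point is the median of 1 library over the regions named on the x axis, for the percentile rank of fold over local background (left), the percentile rank of pileup over library background (middle) and the width in bp (right), with bars at the group means. Gene starts went from 67.6 to 78.1 in fold rank and from 84.3 to 86.2 in pileup rank, while 3′ ends stayed near 42.5 and 42.9, and every kind of region was narrower among knockdown libraries.

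Gene starts and 3′ ends differed in their ranks. Regions at gene starts had median percentile ranks of 69.3, 63.3 and 70.1 among controls and 79.6, 77.9 and 76.8 among knockdown libraries, without overlap. Regions at 3′ ends had 42.2, 42.2 and 43.2 against 40.7, 44.5 and 43.5, and the groups overlapped (difference 0.37, exact permutation p = 0.9). The sign of that small difference turned under several settings, among them ranks of pileup (−0.89) and leaving out knockdown library 2 (−0.45). The distance between the medians of starts and 3′ ends was 27.0, 21.1 and 26.9 percentile points among controls and 38.9, 33.4 and 33.3 among knockdown libraries (exact permutation p = 0.1), and by pileup ranks 29.5 ± 0.474 and 32.2 ± 1.70 (SD, n = 3 each). The ratio of the knockdown to the control mean of median pileup over library background was 0.744 at starts and 0.627 at 3′ ends. In 501 genes with a gene-end region at both ends, the start region moved up more than the 3′ region in 389 genes, or 77.6%. The median difference of their rank scores was 0.355 at the start and −0.019 at the 3′ end. These pairs share their libraries and are a description.

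Per region, limma was fitted to normal scores of the ranks of all 59853 constant regions, with Benjamini-Hochberg adjustment over all of them and a threshold of 0.05. A difference of 1 on this scale is 1 standard deviation of the ranking. Of the gene-end regions, 705 (6.8%) were called higher among knockdown libraries, where 2.94% of all constant regions and 7.98% of those near several gene ends were, and 93 (0.897%) were called lower, where 3.35% were. The median difference was 0.297 over the gene-end regions and 0.029 over all constant regions, and 78.3% of the gene-end regions lay above 0. Control and knockdown values did not overlap in 4470 gene-end regions that stood higher, against 20.2% of all constant regions, and in 510 that stood lower, against 13.3%. Of the gene-end regions called higher, 565 lay at gene starts (7.77% of those there) and 121 where strand was not given (5.93%). At 3′ ends 19 were called higher, 1.8% against 1.85% of constant regions with no gene end. Gene-end regions called lower numbered 39 at starts (0.536%), 30 at 3′ ends (2.84%) and 24 where strand was not given (1.18%). Ranks of pileup over library background called 1151 higher (5.86% of all constant regions were) and 321 lower (6.55% were). Both rankings called 427 regions higher and 45 lower, while 2 regions were higher by fold rank and lower by pileup rank. Without ranking, log2 of the fold called 29 gene-end regions higher and 1879 lower, where 0.322% and 35.2% of all constant regions were called.

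The calls rested on all 6 libraries. Without control 1, 2 or 3 there were 11, 2 and 50 regions called higher, and without knockdown library 1, 2 or 3 there were 69, 163 and 296. Regions called lower numbered 7, 1 and 14 without control 1, 2 or 3 and 25, 45 and 69 without knockdown library 1, 2 or 3. Of 58 named regions called by rank, those of EEF2 and ABCG1 were also called without each library in turn, and 36 were also called in the same direction by ranks of pileup.

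**Figure D2:**
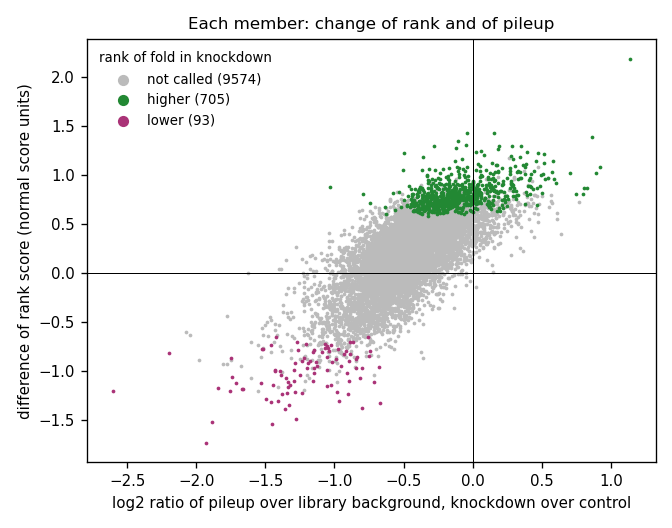
Each point is 1 of the 10372 gene-end regions, with the log2 ratio of its pileup over library background (knockdown over control) on the x axis and the difference of its rank score on the y axis, coloured by the limma call. Most of the 705 regions called higher lie left of 0 on the x axis, with a median pileup ratio of 0.917, and all 93 called lower lie left of it, with a median ratio of 0.437.

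Regions called higher were wider and had more local background than regions called lower. Those called higher had a median width of 1311 bp in the controls, a local background of 6.50 times that of the library and an annotated end inside in 92.1% of cases. Those called lower had a median width of 655 bp, a local background of 1.52 times that of the library and an end inside in 40.9%. Over all gene-end regions, the median difference of rank score was −0.025, 0.243, 0.374 and 0.454 from the lowest to the highest of 4 equal bins of local background. It was 0.003, 0.236, 0.361 and 0.434 in such bins of width. Constant regions with no gene end also had their largest value, 0.176, in the highest bin of local background, with −0.123, −0.208 and −0.094 in the others. In each of 10 bins of mean rank the gene-end regions had a positive median, from 0.129 in bin 1, the lowest, to 0.350 in bin 6. Over the same bins, regions with no gene end went from 0.109 in the lowest to −0.166 in the highest. Local background is the denominator of the fold, so it is not independent of the rank, and its part in the differences was not tested.

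**Figure D3:**
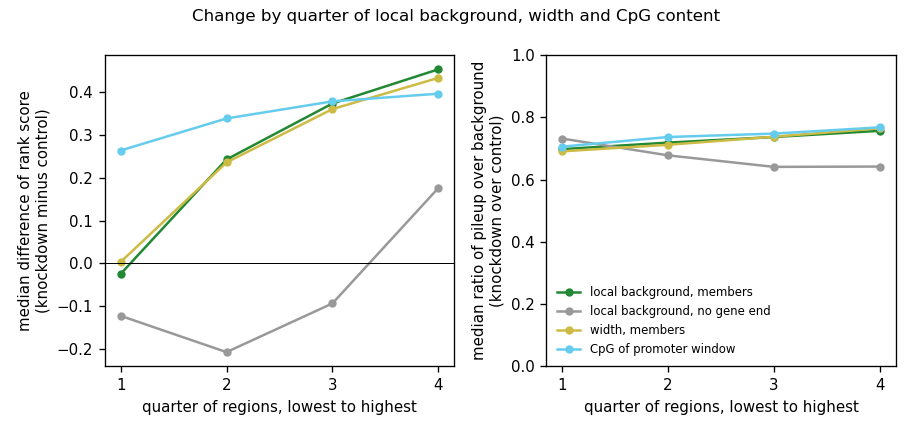
Median difference of rank score (left) and median ratio of pileup over library background (right) in 4 equal bins of local background, of width and of CpG content of the promoter window, each bin being 1 point. The rank difference of gene-end regions climbs from −0.025 to 0.454 over bins of local background, while their pileup ratio goes from 0.698 to 0.757.

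Promoters of gene-end regions were rich in CpG. A promoter window overlapped the region for 6437 genes with a region at their start, and it was set beside the windows of all 15101 protein-coding genes in the table. Median GC content was 66.7% against 62.7%, and the median CpG ratio 0.855 against 0.765. It was 0.895 in the 523 windows of regions called higher and 0.49 in the 17 of regions called lower. By bin of CpG ratio, the median rank score difference was 0.264, 0.339, 0.379 and 0.397 and the median pileup ratio 0.706, 0.737, 0.748 and 0.768. By bin of GC content the pileup ratio went from 0.696 to 0.802, a quantity that does not contain the local background. GC content can also bear on amplification and sequencing, and its part was not tested.

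The SP and KLF box GGGCGG, bound by Sp1 and related factors, was in 74.4% of the gene-end windows against 58.7% of all windows, and in 86.2% of windows of regions called higher. The TATA box was in 5.42% against 9.83%, and the ETS site CCGGAAG in 18.2% against 14.3%. The ATF4 composite site TGATGNAA was in 1.38% of the gene-end windows and 2.54% of all windows. The 89 gene-end regions whose window held it had a median rank score difference of 0.312 and those without it 0.349. The NF-kB-like letters GGGNNTTCC were in 7.99% against 7.55%. The windows also differ in GC content, as given above, and its part in these shares was not tested.

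At gene starts the median position of the summit overlapped between the groups and both edges lay closer to the start after knockdown. Over the 6445 regions that contained the gene start, the median summit lay at −47, −49 and −46 bp from the start among controls and at −48, −48 and −47 bp among knockdown libraries, negative values being upstream. The summit lay within 100 bp of the start in 57.2%, 56.7% and 57.7% of regions in the 3 controls and in 58.0%, 58.5% and 58.1% after knockdown, without overlap (exact permutation p = 0.1). The median upstream edge lay at −470, −448 and −484 bp among controls and −425, −426 and −433 bp among knockdown libraries. The downstream edge lay at 664, 649 and 675 bp against 607, 602 and 625 bp. Neither edge had overlapping groups (exact permutation p = 0.1 for each). The region lost a median of 25.7 bp upstream and 28.3 bp downstream.

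**Figure D4:**
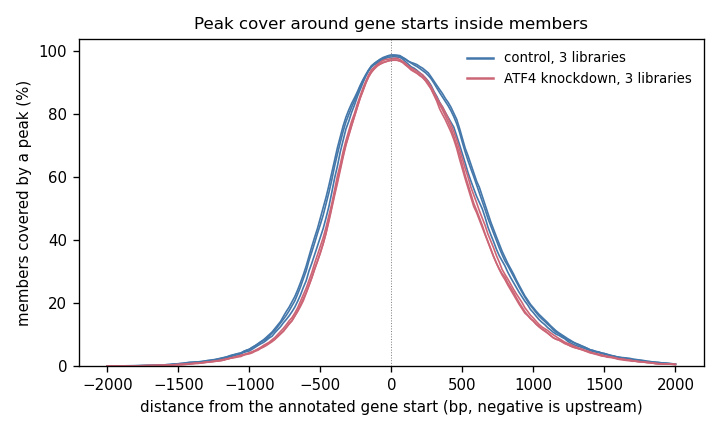
Share of the 6445 regions containing a gene start that was covered by a peak at each distance from that start, 1 line per library, negative distances being upstream. Cover reaches further downstream than upstream in every library, and at 500 bp on either side every knockdown line lies below every control line.

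Gene-end regions were narrower among knockdown libraries, less so than regions with no gene end and with a ratio near that of regions near several gene ends. Their median width was 1103, 1058 and 1127 bp among controls and 997, 994 and 1024 bp among knockdown libraries, without overlap, a difference of −91.0 bp (exact permutation p = 0.1). The ratio of group means was 0.917 for all gene-end regions, 0.923 at starts, 0.787 at 3′ ends, 0.921 in constant regions near several gene ends and 0.778 in those with no gene end. Limma on log2 width called 2 gene-end regions wider, where 0.0134% of all constant regions were, and 95 (0.916%) narrower, where 1.06% were. The narrower calls numbered 91 without knockdown library 3 and 0 without each of the other libraries, and the wider calls 1 and 0. Width is the number of bases under listed peaks, which depends on the depth at which the edge of a peak passes the threshold.

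The targeted gene did not pass the test on rank or width. The region over the start of ATF4 (chromosome 22, 39519219 to 39521254, hg38) had percentile ranks of 74.4, 71.2 and 71.9 among controls and 66.7, 65.0 and 79.6 among knockdown libraries, so the groups overlapped (rank score difference −0.05, SE 0.17, limma adjusted p = 0.875). Its width was 2036, 1913 and 1862 bp among controls and 1616, 1585 and 1652 bp among knockdown libraries, without overlap (log2 difference −0.26, SE 0.05, limma adjusted p = 0.0573). BACH1 (chromosome 21, 29298417 to 29299703, at the gene start) had percentile ranks of 55.9, 35.4 and 55.3 against 68.5, 56.6 and 71.8. All 3 knockdown values lay above the controls, but the difference did not pass the test (0.44, SE 0.20, limma adjusted p = 0.187). By pileup over library background BACH1 stood at 105, 101 and 90.3 among controls and lower, at 69.3, 64.7 and 86.5, among knockdown libraries. ATF4 stood at 125, 149 and 116 against 75.3, 91.6 and 111. Gene-end regions at large were lower on this scale too, with a median ratio of 0.73. By ranks of pileup the difference was 0.04 for BACH1 (limma adjusted p = 0.815) and −0.05 for ATF4 (limma adjusted p = 0.8).

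The 2 subunits of the alternative NF-kB dimer differed in their calls. NFKB2 (chromosome 10, 102393942 to 102395243, at the gene start), which encodes the p52 precursor, had percentile ranks of 55.5, 44.7 and 54.0 among controls and 69.8, 69.6 and 60.1 among knockdown libraries. Its values did not overlap and did not pass the test (0.39, SE 0.17, limma adjusted p = 0.168). By ranks of pileup the NFKB2 difference was 0.0027 (limma adjusted p = 0.99). Its pileup over library background was 115, 133 and 113 among controls and 84.9, 98.1 and 81.7 among knockdown libraries. RELB (chromosome 19, 45001141 to 45002535), which encodes the partner of p52, had 62.4, 58.7 and 68.6 against 84.0, 85.1 and 80.9. RELB rose in rank (0.63, SE 0.16, limma adjusted p = 0.0458), also by ranks of pileup (0.45, limma adjusted p = 0.000787), while its pileup over library background overlapped between the groups, 112, 140 and 124 against 118, 125 and 127. The difference between RELB and NFKB2 was not tested. The coactivator genes EP300 and CREBBP, which encode p300 and CBP, had overlapping ranks. EP300 stood at 64.7, 60.3 and 70.7 among controls and 68.3, 67.0 and 74.2 among knockdown libraries (limma adjusted p = 0.646), and CREBBP at 69.2, 68.5 and 63.4 against 67.5, 71.3 and 78.4 (limma adjusted p = 0.562).

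**Figure D5:**
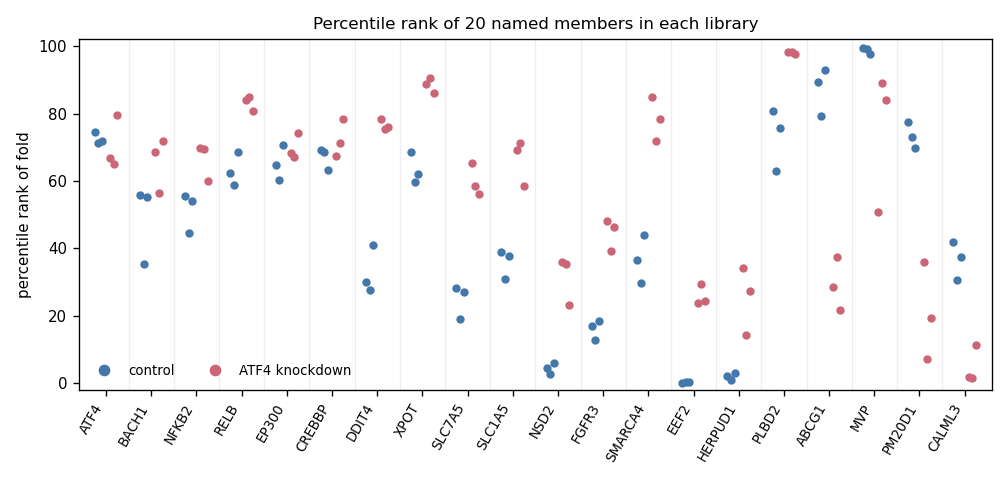
Percentile rank of fold of 20 named gene-end regions in each library, control 1 to 3 and knockdown 1 to 3 from left to right within a gene. ATF4, EP300 and CREBBP overlap between the groups, EEF2 goes from under 0.31 to between 23.7 and 29.3, and ABCG1, MVP, PM20D1 and CALML3 stand lower in every knockdown library.

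Of 30 gene-end regions at ATF4 target genes, 26 had a positive rank score difference, 6 (20%) were called higher, against 6.8% of all gene-end regions, and 0 lower, with a median of 0.414 against 0.297 over all gene-end regions. By ranks of pileup 3 of the 30 were called higher and 2 lower, where 1151 and 321 of all 10372 gene-end regions were. Only 1 of the 30 was called higher by both rankings, the region near the 3′ end of HERPUD1, whose pileup over library background overlapped between the groups. The median ratio of pileup over library background was 0.674 against 0.73. DDIT4, an inhibitor of mTORC1 induced by stress, had its start region (chromosome 10, 72272555 to 72274503) at 30.1, 27.6 and 41.02 among controls and 78.5, 75.5 and 76.1 among knockdown libraries. The groups were far apart (1.18, SE 0.17, limma adjusted p = 0.0115), but by ranks of pileup the difference was 0.09 (limma adjusted p = 0.57). Its local background was 14.5, 15.6 and 13.9 times that of the library among controls and 7.30, 8.29 and 8.31 among knockdown libraries. A smaller region 689 bp from the annotated start of DDIT4 was also called higher, and the 2 share a neighbourhood. XPOT, which exports tRNA from the nucleus, stood at 68.7, 59.7 and 62.1 against 88.6, 90.4 and 86.0 (0.85, SE 0.16, limma adjusted p = 0.023; by ranks of pileup 0.24, limma adjusted p = 0.0736). HERPUD1, a factor of endoplasmic reticulum degradation, had regions called higher at both ends, and MTHFD2, a mitochondrial folate enzyme, 1 at its start.

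Amino acid transporters had 14 gene-end regions, of which 12 (85.7%) lay above 0, against 78.3% of all gene-end regions, with a median of 0.513. Of the 14, 2 (14.3%) were called higher, against 6.8%, and 0 lower. SLC7A5, the light chain of the LAT1 transporter (chromosome 16, 87868244 to 87869862), had percentile ranks of 28.4, 18.9 and 27.0 among controls and 65.3, 58.6 and 56.1 among knockdown libraries. It rose by rank of fold (0.94, SE 0.19, limma adjusted p = 0.0263) and by rank of pileup (0.78, limma adjusted p = 2.65e-07). Its pileup over library background was 78.1, 85.3 and 77.6 among controls and 98.8, 112 and 110 among knockdown libraries. Before that division the pileup was 249, 238 and 273 tags against 248, 240 and 275 tags. The tag counts thus overlapped between the groups, while the library background was lower among knockdown libraries. Fold over local background at SLC7A5 was 7.34, 7.0 and 6.8 among controls and 9.05, 8.73 and 8.83 among knockdown libraries. The part of depth in these differences was not tested. SLC1A5, a glutamine transporter, was called higher by rank of fold (0.79, SE 0.18, limma adjusted p = 0.0345) but not by rank of pileup (0.08, limma adjusted p = 0.618). The region 392 bp from the 3′ end of SLC3A2, the heavy chain of LAT1, went from 937, 1002 and 1098 bp to 331, 240 and 153 bp and was called narrower (log2 difference −2.13, SE 0.29, limma adjusted p = 0.045). Its peaks were weak, with a pileup of 15, 16 and 19 tags among controls and 11, 10 and 11 tags among knockdown libraries. Their −log10 q was 3.52, 4.21 and 5.37 against 2.84, 2.35 and 2.88, near the limit of 2 for a listed peak.

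The aminoacyl-tRNA synthetases, which charge tRNAs, had 26 gene-end regions with 23 above 0, 2 called higher and 0 lower (median 0.361), and their 7.69% called higher was near the 6.8% of all gene-end regions. Both calls moved with the ranking: EPRS1 was higher by rank of fold (0.89, SE 0.18, limma adjusted p = 0.0275) and had −0.06 by ranks of pileup, and LARS2 was higher by rank of fold (0.71, SE 0.18, limma adjusted p = 0.0439) and had −0.01 on the scale of log2 fold without ranking. By ranks of pileup 0 of the 26 were called higher and 1 lower, where 1151 and 321 of all 10372 gene-end regions were. NF-kB genes had 25 gene-end regions, 22 above 0, 3 (12%) called higher and 0 lower (median 0.403). By ranks of pileup 7 of the 25 were higher and 1 lower, to be read beside the same 1151 and 321 of 10372. Beside RELB, the calls were TRAF3, an adaptor that restrains the alternative pathway, and BCL3, a nuclear partner of p50 and p52. TRAF3 stood at 36.7, 25.5 and 35.5 among controls and 63.3, 56.9 and 61.4 among knockdown libraries (0.72, SE 0.18, limma adjusted p = 0.0442). BCL3 stood at 17.2, 13.2 and 21.2 against 51.7, 36.3 and 50.5 (0.86, SE 0.22, limma adjusted p = 0.0447). All 3 were also higher by ranks of pileup.

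Around BACH1, genes of the oxidant response had 18 gene-end regions, 14 above 0, 2 (11.1%, against 6.8% of all gene-end regions) called higher and 0 lower (median 0.331). GCLM, a subunit of the enzyme that starts glutathione synthesis, and MAFF, a small Maf partner of BACH1 and NRF2, were the calls. GCLM stood at 77.8, 75.9 and 80.0 among controls and 95.0, 91.2 and 93.8 among knockdown libraries (0.74, SE 0.17, limma adjusted p = 0.0335). By ranks of pileup GCLM was not called (0.12, limma adjusted p = 0.363), while MAFF was called higher (0.37, limma adjusted p = 0.00569). Plasma cell and myeloma genes had 32 gene-end regions, 26 above 0, 2 (6.25%) called higher and 0 lower (median 0.349). These were NSD2 and FGFR3, neighbours on chromosome 4 at the immunoglobulin translocation known in KMS-11. NSD2 (1870101 to 1872391) had percentile ranks of 4.51, 2.83 and 5.91 among controls and 36.0, 35.4 and 23.3 among knockdown libraries (1.23, SE 0.25, limma adjusted p = 0.0251). Its pileup over library background was 51.7, 57.0 and 57.7 against 65.7, 81.9 and 71.3. FGFR3 stood at 17.1, 12.7 and 18.4 against 48.2, 39.3 and 46.5 (0.86, SE 0.21, limma adjusted p = 0.0399). NSD2 and FGFR3 were higher by ranks of pileup as well.

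Coactivators and chromatin readers had 18 gene-end regions, 14 above 0, 2 (11.1%, against 6.8% of all gene-end regions) called higher and 0 lower (median 0.348). By ranks of pileup 5 of the 18 were higher and 0 lower, where 1151 and 321 of all 10372 gene-end regions were. SMARCA4, the ATPase of the SWI/SNF remodeller (chromosome 19, 10960198 to 10961688), had percentile ranks of 36.5, 29.8 and 44.1 among controls and 84.8, 71.8 and 78.3 among knockdown libraries. It rose by rank of fold (1.14, SE 0.19, limma adjusted p = 0.0158) and by rank of pileup (0.80, limma adjusted p = 1.33e-06), with a pileup over library background of 48.0, 52.3 and 52.8 against 81.7, 67.0 and 81.3. KMT2C, a histone H3 methyltransferase, was the other call (0.75, SE 0.19, limma adjusted p = 0.0455).

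Genes of protein folding in the endoplasmic reticulum had 22 gene-end regions, 21 above 0, 3 (13.6%, against 6.8% of all gene-end regions) called higher and 0 lower (median 0.48). SEL1L, ERN1 and HSP90B1 were the calls, an adaptor of degradation, the sensor IRE1 and a chaperone. SEL1L was higher by rank of fold (0.81, SE 0.18, limma adjusted p = 0.033) and had −0.14 by rank of pileup, while ERN1 was higher by both (0.79, SE 0.18, limma adjusted p = 0.0352, and 0.48, limma adjusted p = 0.00112). HSP90B1 was not called by ranks of pileup. Cytosolic chaperones had 11 regions with 9 above 0 and 1 (9.09%) called higher, BAG3. Ribosomal protein genes had 52 gene-end regions, 45 above 0, 9 (17.3%) called higher and 1 lower (median 0.369), against 6.8% and 0.897% of all gene-end regions and 2.94% and 3.35% of all constant regions. RPL3 stood at 36.5, 17.4 and 29.9 among controls and 76.0, 71.5 and 61.0 among knockdown libraries (1.12, SE 0.21, limma adjusted p = 0.0223). RPL21 was called lower, with a rank score difference of −0.93 (limma adjusted p = 0.0275). Ribosomal protein genes have many near-identical pseudogenes, and how reads with several matches were handled is not given in the sources used here.

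The other groups had medians from 0.11 to 0.403, against 0.297 over all gene-end regions. Mitochondrial ribosomal proteins had 44 regions with 3 called higher and 0 lower (median 0.299) and the proteasome 34 with 2 and 0 (0.358). The spliceosome had 48 with 2 and 0 (0.357), and NADH dehydrogenase with ATP synthase 49 with 1 and 1 (0.322). Within these, MRPL48 was called higher by rank of fold (0.74, SE 0.19, limma adjusted p = 0.0476) and had −0.0033 on the scale of log2 fold without ranking. NDUFS7, a subunit of complex I, had a pileup over library background of 26.3, 38.7 and 34.1 among controls and 57.0, 67.9 and 49.8 among knockdown libraries and rose in rank (0.86, SE 0.19, limma adjusted p = 0.0326). ATP5F1D, a subunit of ATP synthase, was called lower for a narrow region 126 bp from its end (−1.11, SE 0.24, limma adjusted p = 0.0315). Cell cycle genes had 22 regions with 2 called higher (0.403), autophagy and lysosome genes 42 with 3 (0.275) and AP-1 and immediate early genes 30 with 3 (0.336), all with 0 called lower. Their shares called higher were 9.09%, 7.14% and 10%, and those of the 4 groups before them 6.82%, 5.88%, 4.17% and 2.04%. Zinc finger genes of the ZNF series had 326 regions, 244 above 0, 14 called higher and 2 lower (0.238), and their 4.29% called higher was below the 6.8% of all gene-end regions. Interferon response genes had the lowest median of the 19 groups, 0.11, with 15 of 24 above 0, 2 (8.33%) called higher and 0 lower.

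The largest rise of a single gene-end region was at EEF2, which encodes the elongation factor that moves the ribosome along the message. The region (chromosome 19, 3985015 to 3985703) contains the start of EEF2 and the upstream window printed above overlaps it. It had percentile ranks of 0.14, 0.30 and 0.28 in the controls, among the lowest of all constant regions, and 23.7, 29.3 and 24.4 among knockdown libraries (rank score difference 2.19, SE 0.24, limma adjusted p = 0.00543). Its pileup was 37, 38 and 55 tags among controls and 61, 72 and 81 among knockdown libraries in spite of their lower depth. Over library background this was 13.6 ± 2.01 against 30.0 ± 4.99 (SD, n = 3 each), with a log2 ratio of 1.14, the largest among the 81 named regions. EEF2 was also called higher under each of the other settings run that gave it a value. Its width was 557, 616 and 631 bp against 625, 626 and 640 bp and did not pass the test (limma adjusted p = 0.734).

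Next came the region 116 bp from the 3′ end of HERPUD1, at 1.99, 0.79 and 2.87 among controls and 34.1, 14.4 and 27.2 among knockdown libraries (1.43, SE 0.27, limma adjusted p = 0.0231). Its pileup over library background overlapped between the groups, 24.1, 25.4 and 25.6 against 25.1, 20.5 and 27.9. In tags the pileup was 77, 71 and 90 against 63, 44 and 70. Its local background went from 7.40, 8.23 and 7.51 to 4.15, 4.49 and 4.59 times that of the library. PLBD2, a lysosomal hydrolase, went from 80.8, 62.9 and 75.8 to 98.2, 98.2 and 97.6 (1.42, SE 0.19, limma adjusted p = 0.00916), while its width stood at 1187, 976 and 1257 bp against 623, 861 and 764 bp. BRD3OS, a gene on the strand opposite BRD3, went from 54.0, 47.8 and 57.3 to 96.8, 92.9 and 85.3 (1.38, SE 0.21, limma adjusted p = 0.0127). Its pileup over library background was 46.1 ± 4.15 against 84.2 ± 12.6 (SD, n = 3 each). The others among the 10 largest rises were ST6GALNAC4, a sialyltransferase, GPC5, a glypican, the side region of DDIT4, KCNH2, a potassium channel, SPSB1 and TUBB, a beta tubulin, with rank score differences of 1.29 to 1.34. ST6GALNAC4 had a pileup ratio below 1 on the library scale (log2 −0.10) and a local background that went from 13.0, 14.4 and 15.4 to 7.29, 8.78 and 9.03 times that of the library. KCNH2 and SPSB1 started from the bottom of the ranking, KCNH2 at 0.67, 0.08 and 1.34 and SPSB1 at 1.36, 0.44 and 1.97 in the controls.

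The largest falls were mostly at regions that did not contain the annotated end. ABCG1, a cholesterol exporter (chromosome 21, 42199016 to 42200098), stood at 89.5, 79.2 and 93.1 among controls and 28.5, 37.4 and 21.8 among knockdown libraries (−1.74, SE 0.21, limma adjusted p = 0.00663). Its width was 741, 1042 and 1083 bp against 241, 256 and 273 bp (log2 difference −1.88, SE 0.19, limma adjusted p = 0.0365), and its pileup 91, 73 and 106 tags against 17, 19 and 17. It was also lower by ranks of pileup (−1.12, limma adjusted p = 0.00025). A region 325 bp from the 3′ end of MVP, the major vault protein, stood at 99.4, 99.1 and 97.7 against 50.9, 89.2 and 83.9 (−1.54, SE 0.29, limma adjusted p = 0.0223). A region 954 bp from the 3′ end of PM20D1, an enzyme of N-acyl amino acids, stood at 77.5, 73.0 and 69.8 against 36.1, 7.05 and 19.3 (−1.53, SE 0.26, limma adjusted p = 0.0179). PM20D1 was lower by ranks of pileup too (−1.07, limma adjusted p = 0.000325).

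The start of CALML3, a calmodulin-like gene whose window is printed above, stood at 42.0, 30.6 and 37.5 among controls and 1.77, 1.42 and 11.2 among knockdown libraries (−1.50, SE 0.30, limma adjusted p = 0.0254; by ranks of pileup −0.77, limma adjusted p = 0.0563). ABCG1 missed the threshold when the mean over summits was ranked (−0.93, limma adjusted p = 0.207). Other large falls were GOLGA6C, SGPL1, a lyase of sphingosine phosphate, YY1, a zinc finger factor, KMT5C, a histone H4 methyltransferase, and S100A1, a calcium-binding protein, with differences of −1.31 to −1.38. These 5 regions did not contain the annotated end and lay 484 to 971 bp from it. YY1 and KMT5C were small regions beside a strong start, 929 and 915 bp away, with local backgrounds of 11.3 to 14.0 and 13.3 to 22 times that of the library. By ranks of pileup KMT5C was also called lower (−0.64, limma adjusted p = 4.3e-05). GOLGA6C, SGPL1, YY1 and S100A1 were not called by that ranking, at −0.11, −0.68, −0.03 and −0.41 (limma adjusted p = 0.58, 0.0802, 0.871 and 0.3005). GOLGA6C belongs to a family of near-identical copies, so its reads are uncertain.

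Width and rank moved apart in several genes. The regions called wider among knockdown libraries were those of IRF2BP2, a corepressor, and of EGR1, an immediate early factor. IRF2BP2 (chromosome 1, 234609308 to 234611532) spanned 1483, 1467 and 1429 bp among controls and 2093, 2060 and 1967 bp among knockdown libraries (log2 difference 0.48, SE 0.04, limma adjusted p = 0.0365). EGR1 spanned 1649, 1629 and 1643 bp against 1873, 1947 and 1907 bp (0.22, SE 0.03, limma adjusted p = 0.0499), while its ranks overlapped and its pileup was 348, 355 and 393 tags against 186, 141 and 188 tags. The next 3, taken by smallest p and not by size of the widening, were FOSB, DNER and SOCS3. They had no overlap in width and missed the threshold (limma adjusted p = 0.0541, 0.0567 and 0.0575). FOSB did rise in rank, from 2.06, 0.87 and 3.50 to 30.9, 15.4 and 8.57 (1.11, SE 0.29, limma adjusted p = 0.0489). Among the regions called narrower were those near ABCG2, a drug exporter, COXFA4L2 and TRMO, a tRNA methyltransferase, with log2 differences of −1.56, −1.40 and −1.40. Their ranks did not pass the test (limma adjusted p = 0.627, 0.28 and 0.526). Of the 95 regions called narrower, 9 were also called higher in rank and 3 lower.

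The 5 gene-end regions with the highest mean rank were near the top in all 6 libraries. TMEM67, a protein of the ciliary transition zone, FMO4, POM121, a nuclear pore protein, MRPS17, a mitochondrial ribosomal protein, and ZNF169 were these regions, and each stood at or above 99.7 in every library. The pileup at TMEM67 was 509, 610 and 544 tags among controls and 268, 274 and 301 tags among knockdown libraries. POM121 has near-identical copies, so its reads are uncertain. The widest gene-end regions were at UBTF, a factor of RNA polymerase I, TNK2, a kinase, and IRF2, an interferon regulatory factor. UBTF spanned 3237, 3330 and 3190 bp among controls and 3019, 2993 and 3085 bp among knockdown libraries, without overlap but short of the threshold (limma adjusted p = 0.104). By chromosome, the median rank score difference of the gene-end regions ran from 0.231 on chromosome 17 to 0.397 on chromosome 4, so it was positive on each of the 22.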

How the data were processed

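ATAC-seq peak lists of 3 control and 3 knockdown KMS-11 libraries, labelled as biological replicates, were used. Per the submitters' processing notes, the authors used MACS2 and the build hg38. Its version and settings, and how reads with several matches were treated, are not stated in the labels. The deposited lists give each summit a fold over local background (a ratio), −log10 p and −log10 q values, a display score, which was not used, and other columns for strand and summit position.

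Peaks with −log10 q of at least 2 were merged over the 6 lists with pandas 2.3.3 in Python 3.11.15, and gene ends came from the RefSeq table for GRCh38.p14, where 15101 of 19126 protein-coding genes had a strand. The highest fold of each region was ranked among 59853 constant regions and turned into normal scores. Width is the number of bases under such peaks. The pileup was recovered from fold and −log10 p (100% of summits within 0.01), and the library background is its most common local value. Scores and log2 width were fitted with limma 3.58.1 (R 4.3.3, trend and robust variance, Benjamini-Hochberg over all constant regions, threshold 0.05). Medians per library were compared by exact two-sided permutation tests (SciPy 1.17.1). The fits were tested on simulated data. Total reads per library were not used here, since the lists hold none.

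Named regions were those at 6 study genes, the 10 largest rises and falls and the 5 largest changes of width each way among called regions without overlap (filled up by the smallest p), the 5 highest in rank and 3 widest, and up to 2 per gene list. The regions, gene lists and tests were chosen with earlier results of these data known. Alternatives were other q, overlap and distance limits, other rankings and scales, a replicate block and leaving out each library. A region among the largest falls and a marker gene are not reported here.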

Additional observations from a re-analysis of the deposited data

How the results depend on the processing

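The median rank difference of gene-end regions stayed positive under every setting run, from 7.98 to 10.9 with 1 library left out, and was 2.00 by ranks of pileup over library background. Ranking among gene-end regions only gives no value for it, since their median is then fixed. Gene starts gave 8.43 to 11.8 with 1 library left out, but 1.81 by ranks of pileup and 1.71 by ranks among gene-end regions only. The width difference was −110 to −75.5 bp with 1 library left out. The 3′ end difference of 0.37 turned to −1.75 with −log10 q of at least 5, −0.29 with 50% cover, −0.39 with the mean over summits, −0.89 by ranks of pileup and −7.07 by ranks among gene-end regions only, and ran from −0.45 to 1.47 with 1 library left out. Causes were not tested.

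Regions called higher (705) numbered 2 to 296 with 1 library left out, 40 with the mean over summits, 1151 by ranks of pileup, 29 by log2 fold and 363 by ranks among gene-end regions only. Regions called lower (93) numbered 1 to 69 with 1 library left out, and 9, 321, 1879 and 491 under the same 4 settings, and 50 by percentile ranks without normal scores. Regions called wider (2) numbered 0 to 1 with 1 library left out, 12 for the widest single peak, 0 by ranks of width and 0 with 50% cover. Regions called narrower (95) numbered 0 to 91 with 1 library left out, 0 by ranks of width, 179 with −log10 q of at least 5 and 2 with 50% cover. EPRS1 turned to −0.0562 and SEL1L to −0.14 by ranks of pileup, and LARS2 to −0.0108 and MRPL48 to −0.0033 by log2 fold.

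The deviations of libraries with the same replicate number correlated at 0.044, 0.0 and −0.015, and those with different numbers at −0.045 to 0.046. With 3 libraries per group these values cannot settle whether the numbers pair the samples. With the replicate number as a block, 249 regions were called higher, 59 lower, 0 wider and 0 narrower. The background pileup was 2.15 to 2.51 in the knockdown libraries and 2.79 to 3.52 in the controls, and the part of depth in the results was not tested.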
